A study of Mus musculus with 12 samples.

Results

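Integrins are surface receptors made of an α and a β subunit that anchor cells to the extracellular matrix and connect it to the actin cytoskeleton. Laminins, built from an α, a β and a γ chain, are the main network-forming proteins of basement membranes, and the nidogens Nid1 and Nid2 and the proteoglycan perlecan (Hspg2) tie that network to type IV collagen. In bone, integrins of osteoblasts hold the cells to collagen and to proteins that carry the RGD sequence, and laminins line the vessels of the marrow. The genes described here are those the array's annotation names with a single symbol as an integrin α or β subunit or a laminin chain, together with Nid1, Nid2 and Hspg2. They number 39 of 19937 genes: 26 integrin subunits (18 α and 8 β), 10 laminin chains and 3 others.

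Cells were sorted from long bones and measured on 12 microarrays. The mice were NOD SCID females, a strain without functional T and B lymphocytes. The 4 groups of 3 biological replicates are endothelial cells from tumor-bearing mice, endothelial cells from tumor-free mice, osteoblasts of tumor-bearing mice and osteoblasts of tumor-free mice. Tumors came from an injection of MDA-MB-231 scp1833, a bone-seeking human breast cancer line, into the heart, and were followed in the long bones for about 2 weeks. All cells lacked GFP, CD45 and the marker given as TR119; endothelial cells (SCA1+ CD31+) line vessels, and osteoblasts (SCA1- CD31- CD51+) build bone. CD51 is the protein of Itgav, so the sort selected cells on the protein of one of the genes described; its part in the Itgav values was not tested. The sources used here do not give ages, any injection of the tumor-free mice or how many mice an array holds, so the p-values measure the spread between these arrays.

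Values are log2 expression, so that a difference of 1 is a doubling, and the levels of different genes cannot be set against each other on this scale. Array medians lay between 5.21 and 5.41. The median SD of a gene over the replicates was 0.189 in endothelial cells from tumor-bearing mice, 0.173 in those of tumor-free mice, 0.219 in osteoblasts of tumor-bearing mice and 0.328 in those of tumor-free mice. Endothelial markers (15 of 15 on the array) averaged 9.53 to 9.62 and 9.69 to 9.81 in endothelial cells from tumor-bearing and tumor-free mice, against 5.2 to 5.46 and 5.5 to 6.14 in osteoblasts of those mice. Osteoblast markers (8 of 12 on the array) averaged 5.65 to 5.77 and 5.33 to 5.51 in endothelial cells, against 8.72 to 8.97 and 8.14 to 9.39 in osteoblasts. The osteoblast arrays also carried cartilage genes: the mean of 9 chondrocyte markers was 9.64, 10.5 and 10.5 on tumor-bearing replicates 1, 2 and 3 and 9.94, 8.41 and 6.55 on tumor-free replicates 1, 2 and 3. Leukocyte genes, 8 in all, averaged 6.84, 6.51 and 5.38 on these tumor-bearing osteoblast arrays and 5.36, 8.04 and 7.42 on the tumor-free ones, so tumor-free replicates 2 and 3 stood apart. In sorted bulk samples a change in the share of a cell type and a change in RNA per cell cannot be told apart.

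A gene entered the tests if its value lay above the array median on at least 3 of the 12 arrays, which 30 of the 39 did. Itgae, Itgax, Itgb6 and Itgb8 lay above it on 0 arrays, Itga4, Itgam, Lama1 and Lamb3 on 1, and Itgal on 2. A gene could pass this filter through 1 cell type alone, as Lama2 and Itgad did through osteoblasts. Differences were tested by limma over 12430 genes, with Benjamini-Hochberg adjustment and a threshold of 0.05, and are given as log2 differences with their standard errors (SE). The values of a group are those of replicates 1, 2 and 3 in that order. Where an array was left out or a setting changed, the number in parentheses is the adjusted p of that fit.

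Endothelial cells and osteoblasts differed in their collagen receptors, their laminin receptors and their basement membrane chains. In tumor-bearing mice 14 of the 30 genes tested (46.7%) differed between endothelial cells and osteoblasts, 8 higher and 6 lower in endothelial cells, where 14.9% of all genes tested were called, 8.13% higher and 6.79% lower. In tumor-free mice 20 (66.7%) differed, 13 higher and 7 lower, where 31% of all genes were called, 18.2% higher and 12.7% lower. Over all genes this was 2266 higher and 1584 lower in tumor-free mice, against 2852 and 785 with arrays centred on their medians and 1645 and 1545 after quantile normalization. The arrays of the 2 cell types did not overlap for 17 of the 30 genes in tumor-bearing and 24 in tumor-free mice, where 35.9% and 47.3% of all genes tested did not. The means of these comparisons come from different arrays, but 1 fit over all 12 arrays gave the SE of both. Their calls are thus not independent. In both, 13 genes were called with the same direction, 92.9% of the calls in tumor-bearing and 65% of those in tumor-free mice. Over all genes tested 1252 were, 67.5% of the calls in tumor-bearing and 32.5% of those in tumor-free mice. The median difference of the 30 genes was 0.08 in tumor-bearing and 0.45 in tumor-free mice, against 0.00025 and 0.03 over all genes tested. With any 1 of the 12 arrays left out, 8 of the 14 calls in tumor-bearing and 14 of the 20 in tumor-free mice held in every fit. Fitted to the 6 arrays compared alone, the calls of Itga1 (0.0656) and Lamc1 (0.0643) ended in tumor-bearing mice. In tumor-free mice those of Hspg2, Itga11, Itgad, Itgav, Itgb2 and Lama2 did (0.0579 to 0.122).

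**Figure D1:**
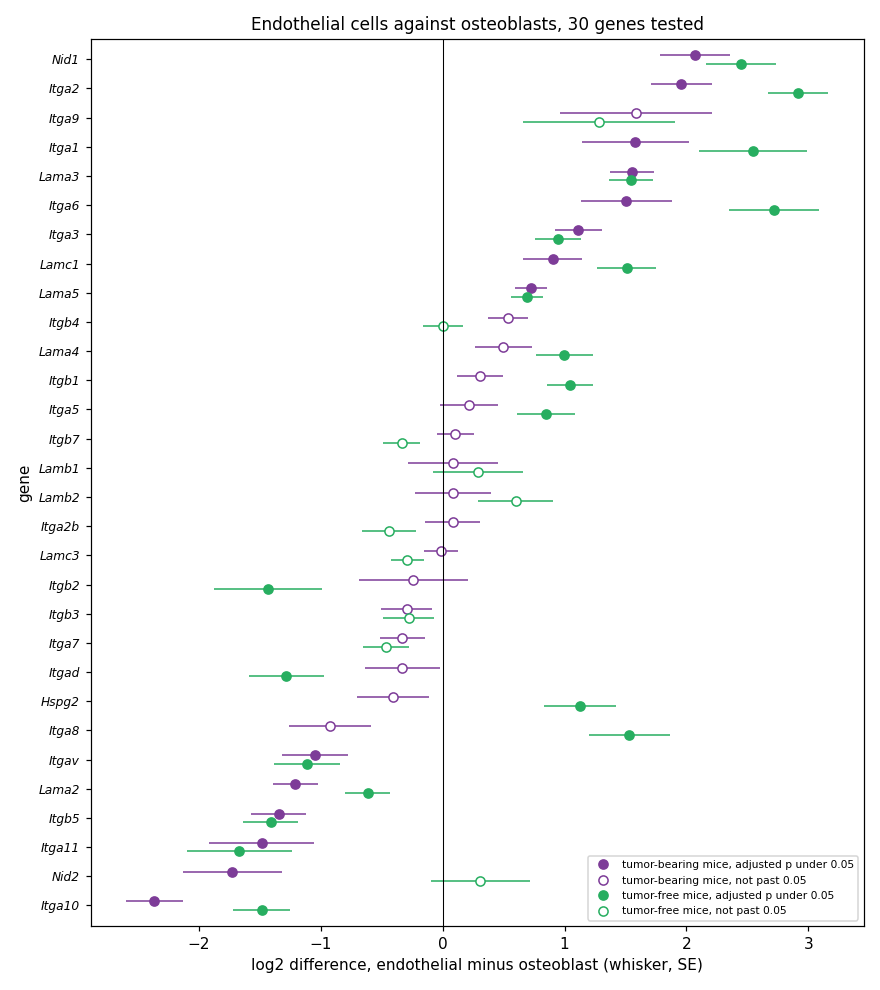
Log2 difference between endothelial cells and osteoblasts (x axis; whiskers, SE) for the 30 genes tested (y axis), in tumor-bearing (purple) and tumor-free mice (green); filled points passed an adjusted p of 0.05. Nid1, Itga2, Itga1, Lama3 and Itga6 lie to the right in both, Itga10, Itga11 and Itgb5 to the left in both, and Itga8, Hspg2 and Nid2 lie on opposite sides.

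The 4 α subunits that pair with β1 to bind collagens were split between the cell types. Itga1 read 9.73, 9.42 and 9.44 in endothelial cells from tumor-bearing mice and 9.54, 9.50 and 9.59 in those from tumor-free mice, against 9.20, 7.72 and 6.93 in osteoblasts from tumor-bearing mice and 7.08, 6.58 and 7.32 in those from tumor-free mice. Itga1 encodes a receptor chain with a preference for type IV collagen, and tumor-bearing osteoblast replicate 1 came within reach of the endothelial arrays while the others stayed below. For Itga2, endothelial cells gave 8.02, 7.83 and 8.06 in tumor-bearing and 8.89, 8.84 and 8.79 in tumor-free mice, and osteoblasts 6.26, 5.56 and 6.22 in tumor-bearing and 5.55, 5.74 and 6.48 in tumor-free mice. This chain, best known as the platelet collagen receptor, was higher on every endothelial array than on any osteoblast array, by 3.89-fold in tumor-bearing (log2 difference 1.96 ± 0.25 SE, adjusted p = 0.00031) and 7.54-fold in tumor-free mice (2.92 ± 0.25 SE, adjusted p = 1.78e-05). Itga1 was 2.99-fold higher in tumor-bearing (1.58 ± 0.44 SE, adjusted p = 0.0334) and 5.85-fold higher in tumor-free mice (2.55 ± 0.44 SE, adjusted p = 0.00216).

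The other two collagen receptor chains ran the opposite way. Endothelial cells had Itga10 at 5.26, 5.20 and 5.20 in tumor-bearing mice and at 5.72, 5.23 and 5.45 in tumor-free mice, and osteoblasts had it at 7.41, 7.74 and 7.63 in tumor-bearing mice and at 6.66, 7.54 and 6.65 in tumor-free mice. Itga10, the α10 chain of cartilage, was higher on all 6 osteoblast arrays, and its difference was -2.37 ± 0.23 SE in tumor-bearing (adjusted p = 5.37e-05) and -1.48 ± 0.23 SE in tumor-free mice (adjusted p = 0.00124). The 9 chondrocyte markers averaged 5.08 to 5.55 and 5.2 to 6.15 on these endothelial arrays, against 9.64 to 10.5 and 6.55 to 9.94 on the osteoblast arrays; their part in the result was not tested. Itga11, a receptor for fibrillar collagen in mesenchymal cells, lay between 5.01 and 5.46 on the endothelial arrays and between 5.79 and 7.48 on the osteoblast arrays. Its difference was -1.49 ± 0.43 SE in tumor-bearing (adjusted p = 0.0401) and -1.67 ± 0.43 SE in tumor-free mice (adjusted p = 0.0161). In tumor-bearing mice the call of Itga1 held in 5 of 12 such fits and ended without any endothelial array of these mice, tumor-free endothelial replicate 2 or 3, or osteoblast replicate 2 or 3 of tumor-bearing mice (0.0507 to 0.115); without tumor-bearing osteoblast replicate 1 the difference was 2.21. That of Itga11 there held in 4, without osteoblast replicate 3 of tumor-bearing mice or any tumor-free osteoblast array (0.0532 to 0.14 in the others). It also ended with the replicate number as a block (0.0712), after quantile normalization (0.0664), with arrays centred on their medians (0.0561) and with no filter (0.0581), and in tumor-free mice the call ended without endothelial replicate 2 (0.0519) or 3 (0.0544).

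The 250 bases before the annotated start of these genes are given as the stretch of DNA nearest to the point where each transcript begins, from RefSeq promoters of build GRCm38.p6, read 5′ to 3′ along the gene. Promoters were found for 25 of the 39 genes. Both strands were searched for 6 motifs, and capitals mark a match. The GC box, spelled GGGCGG, occurs in 32.7% of all 32851 windows of this length. The TATA box was searched as TATAAA and is found in 12.4% of them, and the AP-1 site as TGANTCA, found in 6.75%. The Runx site of osteoblast factors was spelled TGTGGT and occurs in 14% of windows. The ETS site, read by many endothelial factors, was spelled CGGAAG and occurs in 13.6%, and the CArG box of smooth muscle genes occurs in 1.47%. None of the 4 windows held a match, and their G and C content was 57.6%, 60.8%, 48.0% and 68.4%.
Itga1 (chr13:115101965-115102214, minus strand): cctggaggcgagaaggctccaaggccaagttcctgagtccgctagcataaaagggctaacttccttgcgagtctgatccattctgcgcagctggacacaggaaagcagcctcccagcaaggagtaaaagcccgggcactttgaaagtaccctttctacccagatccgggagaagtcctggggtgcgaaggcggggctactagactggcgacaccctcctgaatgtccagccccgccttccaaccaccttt
Itga2 (chr13:114932101-114932350, minus strand): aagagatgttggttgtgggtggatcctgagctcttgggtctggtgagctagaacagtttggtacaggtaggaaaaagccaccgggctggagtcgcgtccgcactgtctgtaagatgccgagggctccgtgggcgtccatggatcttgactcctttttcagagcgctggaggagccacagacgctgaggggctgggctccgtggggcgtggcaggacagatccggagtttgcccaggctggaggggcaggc
Itga10 (chr3:96645334-96645583, plus strand): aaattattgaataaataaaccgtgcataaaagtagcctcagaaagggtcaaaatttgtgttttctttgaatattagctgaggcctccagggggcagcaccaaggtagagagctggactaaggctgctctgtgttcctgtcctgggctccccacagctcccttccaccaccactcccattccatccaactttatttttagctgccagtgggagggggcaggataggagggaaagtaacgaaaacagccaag
Itga11 (chr9:62677605-62677854, plus strand): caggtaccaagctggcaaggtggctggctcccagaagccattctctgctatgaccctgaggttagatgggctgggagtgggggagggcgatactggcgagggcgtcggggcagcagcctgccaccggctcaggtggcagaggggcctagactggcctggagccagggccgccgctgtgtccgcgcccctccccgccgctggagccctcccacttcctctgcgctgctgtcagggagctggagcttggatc

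Of the 3 α chains that bind laminin, Itga3 and Itga6 were higher in endothelial cells. Itga6 read 9.65, 9.53 and 9.78 in endothelial cells from tumor-bearing mice and 9.54, 9.29 and 9.47 in those from tumor-free mice, against 7.82, 8.10 and 8.52 in osteoblasts from tumor-bearing mice and 7.60, 5.73 and 6.82 in those from tumor-free mice. Itga6 pairs with β1 or β4, and all endothelial arrays lay above all osteoblast arrays. It was 2.84-fold higher in tumor-bearing (1.51 ± 0.37 SE, adjusted p = 0.0182) and 6.58-fold higher in tumor-free mice (2.72 ± 0.37 SE, adjusted p = 0.000503). For Itga3, endothelial cells gave 6.89, 7.19 and 6.96 in tumor-bearing and 7.12, 6.44 and 6.57 in tumor-free mice, and osteoblasts 5.86, 6.04 and 5.79 in tumor-bearing and 5.69, 5.67 and 5.94 in tumor-free mice. The groups of Itga3 did not overlap, at 2.16-fold in tumor-bearing (adjusted p = 0.00221) and 1.92-fold in tumor-free mice (adjusted p = 0.00492). Itga7, the laminin receptor chain of skeletal muscle, ranged from 5.16 to 6.08 over all arrays and passed in neither tumor-bearing (adjusted p = 0.319) nor tumor-free mice (adjusted p = 0.078). Itgb4, which pairs with α6 alone, read 6.26 to 6.41 in endothelial cells and 5.65 to 5.94 in osteoblasts of tumor-bearing mice, without overlap and short of the threshold (0.53 ± 0.16 SE, adjusted p = 0.0518). It passed without tumor-free osteoblast replicate 1, 2 or 3 (0.0363 to 0.0486), with arrays centred on their medians (0.0222) or in the 6 arrays alone (0.0425), and in tumor-free mice it differed by less than its SE. The call of Itga6 in tumor-bearing mice ended without endothelial replicate 1 (0.0563) or 3 (0.0682) or osteoblast replicate 1 (0.066) or 2 (0.0614) of these mice.

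Among receptors for RGD proteins such as fibronectin and vitronectin, the β5 chain was higher in osteoblasts. Endothelial cells had Itgb5 at 6.61, 6.76 and 6.04 in tumor-bearing mice and at 6.31, 6.37 and 6.29 in tumor-free mice, and osteoblasts had it at 8.12, 7.96 and 7.37 in tumor-bearing mice and at 7.78, 7.86 and 7.56 in tumor-free mice. No endothelial array reached an osteoblast array, and the difference was -1.35 ± 0.23 SE in tumor-bearing (adjusted p = 0.00207) and -1.41 ± 0.23 SE in tumor-free mice (adjusted p = 0.00138). Itgav read 7.85, 7.89 and 7.84 in endothelial cells from tumor-bearing mice and 7.75, 7.15 and 6.91 in those from tumor-free mice, against 9.16, 9.07 and 8.50 in osteoblasts from tumor-bearing mice and 7.91, 8.52 and 8.73 in those from tumor-free mice. The αv chain, which partners β5 and β3 and carries the sort epitope CD51, differed by -1.05 ± 0.27 SE in tumor-bearing and -1.11 ± 0.27 SE in tumor-free mice, the direction of the gate. It counts among the calls, and its call ended in tumor-bearing mice without endothelial replicate 1, 2 or 3 or osteoblast replicate 1 or 2 of these mice (0.0586 to 0.0854), and in tumor-free mice without endothelial replicate 3 (0.05). For Itgb3, endothelial cells gave 5.71, 6.12 and 5.59 in tumor-bearing and 5.82, 5.81 and 5.77 in tumor-free mice, and osteoblasts 5.90, 5.85 and 6.56 in tumor-bearing and 5.93, 6.29 and 6.02 in tumor-free mice. The β3 chain, shared by αv and the platelet receptor, overlapped between the cell types in tumor-bearing mice, was lower on all 3 endothelial arrays in tumor-free mice, and passed in neither (adjusted p = 0.456 and adjusted p = 0.32).

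Endothelial cells had Itgb1 at 10.60, 10.49 and 10.62 in tumor-bearing mice and at 10.66, 10.43 and 10.58 in tumor-free mice, and osteoblasts had it at 10.59, 10.19 and 10.02 in tumor-bearing mice and at 9.21, 9.81 and 9.50 in tumor-free mice. Itgb1, the common partner of the collagen, laminin and fibronectin receptors, was 2.07-fold higher in endothelial cells from tumor-free mice (1.05 ± 0.19 SE, adjusted p = 0.00273), where the cell types did not overlap. In tumor-bearing mice they overlapped and the difference did not pass (0.31 ± 0.19 SE, adjusted p = 0.372). Itga5 read 7.65, 7.46 and 7.78 in endothelial cells from tumor-bearing mice and 7.71, 7.39 and 7.39 in those from tumor-free mice, against 7.08, 7.98 and 7.16 in osteoblasts from tumor-bearing mice and 6.84, 6.73 and 6.39 in those from tumor-free mice. The fibronectin receptor chain α5 also overlapped in tumor-bearing and not in tumor-free mice, with 0.22 ± 0.24 SE in tumor-bearing (adjusted p = 0.662) and 0.85 ± 0.24 SE in tumor-free mice (adjusted p = 0.0227). The call of Itga5 ended without tumor-free endothelial replicate 1 (0.0779) or tumor-free osteoblast replicate 3 (0.0661), after quantile normalization (0.103), and with a weight for each array (0.0717) or group (0.06).

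**Figure D2:**
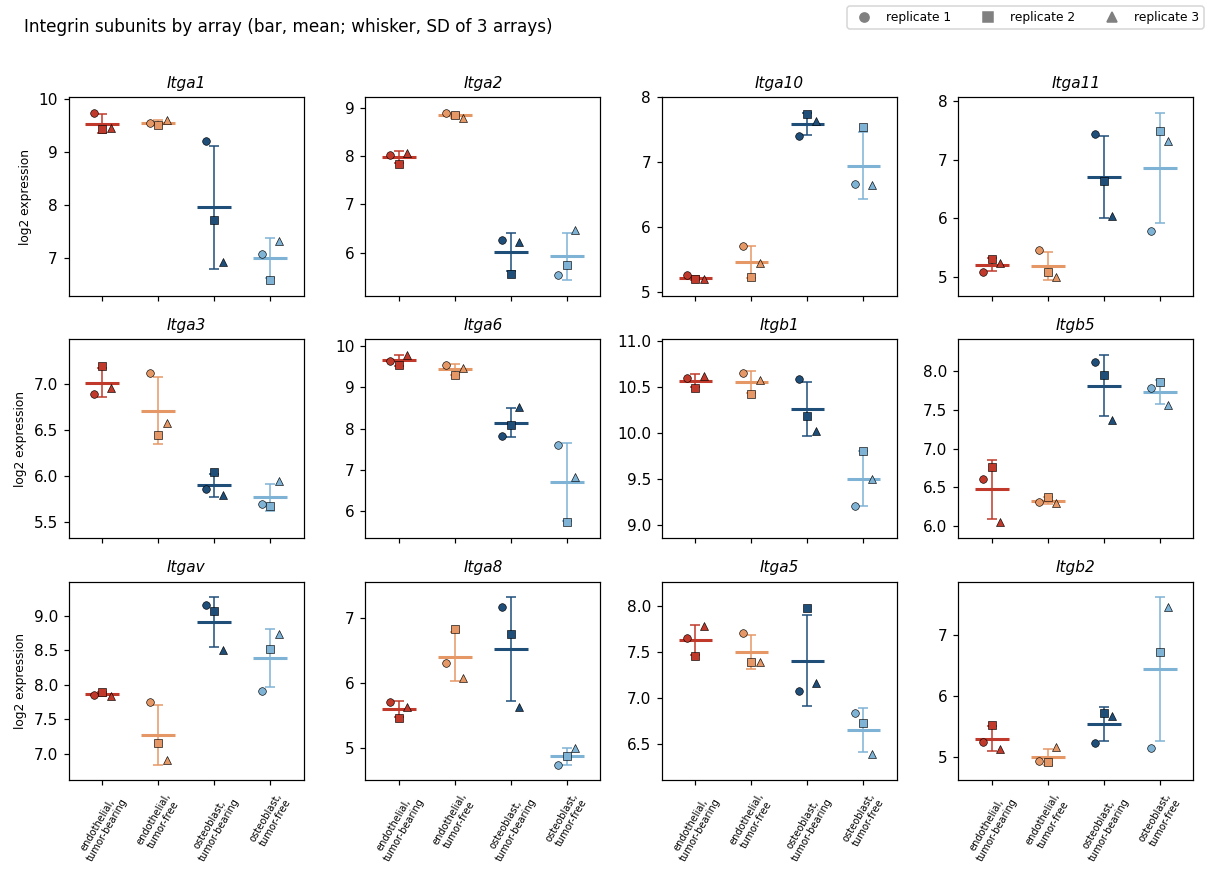
Log2 expression (y axis) of 12 integrin subunits on each array by group (x axis); horizontal bars are means, whiskers the SD of 3 arrays, and circles, squares and triangles replicates 1, 2 and 3. Itga1, Itga2, Itga3 and Itga6 are higher in endothelial cells, Itga10, Itga11 and Itgb5 in osteoblasts, and Itga8 has its lowest values, 4.75 to 5.01, in osteoblasts of tumor-free mice.

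Itga9, whose protein with β1 binds tenascin and VCAM1, ranged from 7.91 to 8.71 on the endothelial arrays. On the osteoblast arrays it spread from 5.45 to 8.76, and it passed in neither tumor-bearing (1.59 ± 0.63 SE, adjusted p = 0.129) nor tumor-free mice (1.28 ± 0.63 SE, adjusted p = 0.133). Without tumor-free osteoblast replicate 3, its highest osteoblast array, the tumor-free difference was 1.97 (0.0248). In tumor-bearing mice its groups did not overlap, and it passed in the 6 arrays of these mice alone (0.0426) and without tumor-free osteoblast replicate 1 (0.031) or 3 (0.0488). Itga8, the α8 chain, was 2.89-fold higher in endothelial cells from tumor-free mice (1.53 ± 0.33 SE, adjusted p = 0.00736). Its osteoblast values in tumor-free mice, 4.75 to 5.01, lay below the lowest array median, 5.21. Itga8 lay at -0.92 ± 0.33 SE in tumor-bearing mice (adjusted p = 0.0965), where it passed without osteoblast replicate 3 of these mice (-1.37, adjusted p = 0.00366). Itga4 encodes the receptor chain for VCAM1 on leukocytes and was not tested. For Itga4, endothelial cells gave 4.27, 4.52 and 4.15 in tumor-bearing and 4.08, 4.57 and 4.45 in tumor-free mice, and osteoblasts 5.03, 4.74 and 6.32 in tumor-bearing and 4.22, 4.78 and 5.39 in tumor-free mice. Its highest value was tumor-bearing osteoblast replicate 3.

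Subunits of leukocytes and platelets were low or uneven in these CD45-negative sorts. Endothelial cells had Itgb2 at 5.25, 5.53 and 5.13 in tumor-bearing mice and at 4.94, 4.92 and 5.16 in tumor-free mice, and osteoblasts had it at 5.23, 5.73 and 5.67 in tumor-bearing mice and at 5.15, 6.72 and 7.46 in tumor-free mice. The β2 chain, shared by the leukocyte integrins, was high on tumor-free osteoblast replicates 2 and 3, the arrays with the highest leukocyte marker means. Ptprc, which encodes CD45, read 4.92, 8.46 and 6.41 on tumor-free osteoblast replicates 1, 2 and 3. On tumor-bearing osteoblast replicates 1, 2 and 3 it read 7.03, 6.87 and 4.7, beside Itgb2 at 5.23, 5.73 and 5.67. Itgb2 differed by -1.43 ± 0.45 SE between endothelial cells and osteoblasts of tumor-free mice (adjusted p = 0.0337), with overlap. Without tumor-free osteoblast replicate 1 the difference was -2.08. The call ended without tumor-free endothelial replicate 1, 2 or 3 or osteoblast replicate 2 or 3 (0.0684 to 0.0908), after quantile normalization (0.0605) and with arrays centred on their medians (0.0525). Itgad, the αD chain of macrophages, was listed by 2 probe sets, and the one used read 5.28, 6.82 and 6.34 on tumor-free osteoblast replicates 1, 2 and 3, against 4.79 to 5.48 on the other 9 arrays. It differed by -1.29 ± 0.31 SE in tumor-free mice (adjusted p = 0.0115), and by -0.63 over the mean of both probe sets. The endothelial values of Itgad all lay below the lowest array median, 5.21, so it entered the tests through osteoblast arrays alone. The part of leukocyte RNA in these 2 results was not tested.

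Itgam read 4.15, 4.22 and 4.13 in endothelial cells from tumor-bearing mice and 4.12, 4.33 and 4.23 in those from tumor-free mice, against 5.36, 4.90 and 4.53 in osteoblasts from tumor-bearing mice and 4.76, 4.78 and 4.36 in those from tumor-free mice. The αM chain of neutrophils and macrophages stayed low throughout and, like Itgal, Itgae and Itgax, was not tested. Itgb7, the β7 chain of gut-homing lymphocytes, ranged from 4.91 to 5.70. For Itga2b, endothelial cells gave 5.90, 5.90 and 5.74 in tumor-bearing and 5.66, 5.73 and 5.83 in tumor-free mice, and osteoblasts 5.33, 5.63 and 6.34 in tumor-bearing and 6.14, 6.04 and 6.35 in tumor-free mice. Itga2b, the αIIb chain of platelets and megakaryocytes, passed in neither comparison of the cell types (adjusted p = 0.892 in tumor-bearing and adjusted p = 0.147 in tumor-free mice), though it was -0.44 in tumor-free mice, past the threshold, in the fit without tumor-bearing osteoblast replicate 3 (0.0463). On tumor-bearing osteoblast replicate 3, where Itga2b, Itgb3 and Itga4 had values of 6.34, 6.56 and 6.32, the mean of 6 megakaryocyte and platelet markers was 7.87, against 5.58 to 6.71 on the other 11 arrays. Itga2b also read 6.35 on tumor-free osteoblast replicate 3, where the mean of these markers was 6.32. Their part in these values was not tested.

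Laminin chains Lama3, Lama5 and Lamc1 were higher in endothelial cells. Endothelial cells had Lama3 at 6.49, 6.96 and 7.02 in tumor-bearing mice and at 6.92, 6.79 and 6.86 in tumor-free mice, and osteoblasts had it at 5.24, 5.18 and 5.39 in tumor-bearing mice and at 5.07, 5.30 and 5.57 in tumor-free mice. Lama3, an α chain best known from epithelial basement membranes, did not overlap between the cell types and was 2.94-fold higher in tumor-bearing (1.56 ± 0.18 SE, adjusted p = 0.000154) and 2.92-fold higher in tumor-free mice (1.54 ± 0.18 SE, adjusted p = 0.000161). Lama5 read 6.42, 6.40 and 6.55 in endothelial cells from tumor-bearing mice and 6.45, 6.52 and 6.38 in those from tumor-free mice, against 5.63, 5.72 and 5.84 in osteoblasts from tumor-bearing mice and 5.86, 5.59 and 5.83 in those from tumor-free mice. Lama5, an α chain of mature vessel walls, did not overlap either, at 1.65-fold in tumor-bearing (adjusted p = 0.00322) and 1.61-fold in tumor-free mice (adjusted p = 0.00363). For Lama4, endothelial cells gave 8.18, 8.33 and 8.38 in tumor-bearing and 8.52, 7.99 and 8.22 in tumor-free mice, and osteoblasts 8.12, 7.85 and 7.43 in tumor-bearing and 7.64, 6.86 and 7.23 in tumor-free mice. The other endothelial α chain, Lama4, was 2-fold higher in tumor-free mice (adjusted p = 0.0108) and did not pass in tumor-bearing mice (0.50 ± 0.24 SE, adjusted p = 0.217), without overlap in either. Its tumor-free call ended after quantile normalization (0.0537).

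The α2 chain of muscle and nerve basement membranes, Lama2, was lower in endothelial cells. All its endothelial values lay below the lowest array median, 5.21, so it entered the tests through osteoblast arrays alone. Endothelial cells had Lama2 at 4.92, 4.90 and 4.75 in tumor-bearing mice and at 5.12, 4.74 and 4.93 in tumor-free mice, and osteoblasts had it at 6.27, 6.07 and 5.85 in tumor-bearing mice and at 5.88, 5.47 and 5.29 in tumor-free mice. The arrays of the cell types did not overlap, and the difference was -1.21 ± 0.18 SE in tumor-bearing (adjusted p = 0.00108) and -0.62 ± 0.18 SE in tumor-free mice (adjusted p = 0.0291). In tumor-free mice the call ended without endothelial replicate 2 (0.103) or 3 (0.0743) or osteoblast replicate 1 (0.0749), after quantile normalization (0.086), with arrays centred on their medians (0.0783) and with a weight for each group (0.0636).

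Lamc1 read 9.05, 8.72 and 8.82 in endothelial cells from tumor-bearing mice and 9.06, 8.87 and 9.01 in those from tumor-free mice, against 8.61, 7.81 and 7.47 in osteoblasts from tumor-bearing mice and 7.42, 7.41 and 7.57 in those from tumor-free mice. Lamc1, the γ chain of most laminins, was 1.87-fold higher in endothelial cells from tumor-bearing (0.90 ± 0.24 SE, adjusted p = 0.0285) and 2.85-fold higher in those of tumor-free mice (1.51 ± 0.24 SE, adjusted p = 0.00142), without overlap in either. The call in tumor-bearing mice ended without endothelial replicate 1, 2 or 3 or osteoblast replicate 2 or 3 of these mice (0.0537 to 0.107). For Lamb1, endothelial cells gave 7.96, 7.85 and 8.02 in tumor-bearing and 8.22, 7.87 and 7.89 in tumor-free mice, and osteoblasts 8.66, 7.71 and 7.22 in tumor-bearing and 7.10, 7.60 and 8.41 in tumor-free mice. The β1 chain overlapped and passed in neither (adjusted p = 0.938 in tumor-bearing and adjusted p = 0.562 in tumor-free mice). Endothelial cells had Lamb2 at 7.44, 7.55 and 7.44 in tumor-bearing mice and at 7.51, 7.50 and 7.62 in tumor-free mice, and osteoblasts had it at 7.51, 7.42 and 7.25 in tumor-bearing mice and at 6.62, 7.87 and 6.34 in tumor-free mice. The β2 chain did not pass either (adjusted p = 0.926 in tumor-bearing and adjusted p = 0.155 in tumor-free mice), but without tumor-free osteoblast replicate 2, the highest of all arrays, it differed by 1.06 in tumor-free mice (0.000892). Lamc3 ranged from 5.90 to 6.44 and passed in neither.

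The nidogens and perlecan did not move as a set. Nid1 read 8.87, 8.69 and 9.09 in endothelial cells from tumor-bearing mice and 8.89, 9.10 and 9.02 in those from tumor-free mice, against 7.50, 6.83 and 6.10 in osteoblasts from tumor-bearing mice and 6.75, 6.36 and 6.54 in those from tumor-free mice. Every endothelial array lay above every osteoblast array, and Nid1 was 4.21-fold higher in tumor-bearing (2.07 ± 0.29 SE, adjusted p = 0.000569) and 5.46-fold higher in tumor-free mice (2.45 ± 0.29 SE, adjusted p = 0.000178). For Nid2, endothelial cells gave 7.26, 7.55 and 8.08 in tumor-bearing and 8.0, 8.53 and 8.20 in tumor-free mice, and osteoblasts 8.85, 9.54 and 9.68 in tumor-bearing and 8.89, 7.80 and 7.11 in tumor-free mice. Nid2 ran the other way in tumor-bearing mice, 3.31-fold lower in endothelial cells (-1.73 ± 0.41 SE, adjusted p = 0.014), and overlapped in tumor-free mice (0.31 ± 0.41 SE, adjusted p = 0.572). In tumor-bearing mice the 9 chondrocyte markers were also lower in endothelial cells, with a median difference of -5.15. They were lower in tumor-free mice too, at -2.84, where Nid2 was not. Their part in the result was not tested. The call of Nid2 ended without endothelial replicate 1 (0.0621) or osteoblast replicate 2 (0.0562) or 3 (0.057) of tumor-bearing mice. Endothelial cells had Hspg2 at 8.27, 8.23 and 8.40 in tumor-bearing mice and at 8.60, 8.90 and 8.93 in tumor-free mice, and osteoblasts had it at 8.21, 9.03 and 8.88 in tumor-bearing mice and at 8.38, 7.47 and 7.20 in tumor-free mice. Perlecan did not pass in tumor-bearing mice (-0.41 ± 0.30 SE, adjusted p = 0.466) and was 2.18-fold higher in endothelial cells from tumor-free mice (adjusted p = 0.0174). The call for perlecan ended without tumor-free endothelial replicate 2 (0.0568) or 3 (0.0578) or osteoblast replicate 3 (0.0522), and after quantile normalization (0.0653).

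**Figure D3:**
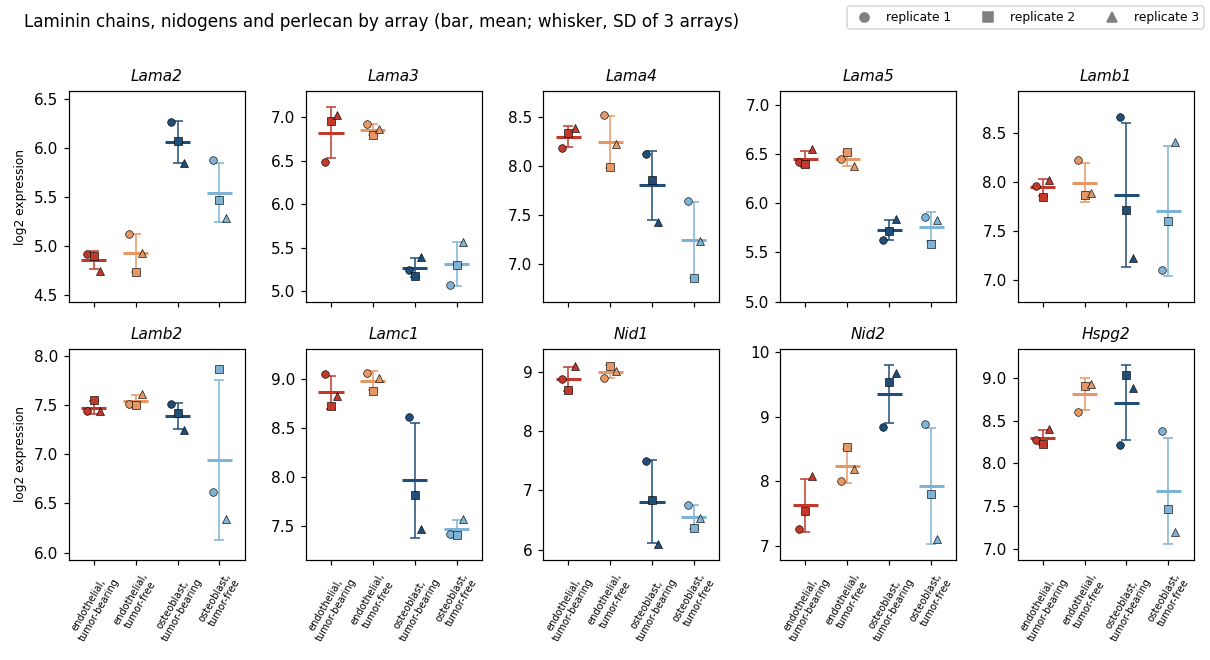
Log2 expression (y axis) of 7 laminin chains, both nidogens and perlecan on each array by group (x axis), drawn as for the integrin subunits. Lama3, Lama5, Lamc1 and Nid1 are higher in endothelial cells of both kinds of mice, and Nid2 and Hspg2 have their lowest values, 7.11 and 7.20, in osteoblasts of tumor-free mice.

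In osteoblasts, 2 of the 30 genes (6.67%) passed between tumor-bearing and tumor-free mice, both higher, where 4.59% of all genes were called, 4.01% higher and 0.571% lower. This share is near that of all genes. Over all genes 499 were higher and 71 lower, against 368 and 184 after quantile normalization and 625 and 57 with arrays centred on their medians. At an unadjusted p under 0.05 there were 11 (of 30), where 24.4% of all genes had one. Groups were free of overlap for 5 of the 30, where 24.7% of all genes were. The median difference of the 30 genes was 0.15, against -0.0014 over all genes.

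Itga8 encodes the α8 chain, which with β1 binds RGD proteins such as nephronectin and is known from smooth muscle and mesenchyme. It read 7.18, 6.76 and 5.64 in osteoblasts of tumor-bearing mice and 4.75, 4.88 and 5.01 in those of tumor-free mice. All tumor-bearing arrays were higher, with replicate 3 nearest to the tumor-free ones. Itga8 rose 3.14-fold (1.65 ± 0.33 SE, adjusted p = 0.0233), from tumor-free values that all lay below the lowest array median, 5.21. The 8 smooth muscle and pericyte markers on the array averaged 8.29, 7.97 and 7.05 in osteoblasts of tumor-bearing mice and 6.47, 6.37 and 6.41 in those of tumor-free mice, and 3 of the 8 rose; among them Acta2, smooth muscle actin, read 9.59, 9.77 and 8.35 in tumor-bearing and 6.51, 6.97 and 5.96 in tumor-free mice. Their part in the result was not tested. The call of Itga8 ended without tumor-bearing osteoblast replicate 1 (0.062) or 2 (0.0981), with a weight for each group (0.117) and in the 6 osteoblast arrays alone (0.183), where 0 of 12430 genes were called.

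Itgb1 was the other gene called. It read 10.59, 10.19 and 10.02 in osteoblasts of tumor-bearing mice and 9.21, 9.81 and 9.50 in those of tumor-free mice, without overlap. Itgb1 rose 1.69-fold (0.75 ± 0.19 SE, adjusted p = 0.0489), at the edge of the threshold. The call held in 1 of 12 fits with an array left out, the one without tumor-free osteoblast replicate 2, and adjusted p was 0.0512 to 0.14 in the 11 others. It also ended with the replicate number as a block (0.0856), after quantile normalization (0.0685), with a weight for each array (0.0983) or each group (0.145) and in the osteoblast arrays alone (0.271). The 12 immediate early genes, which also respond to tissue dissociation, averaged 9.78, 9.87 and 9.74 in osteoblasts of tumor-bearing mice and 9.19, 8.63 and 8.07 in those of tumor-free mice; their part in the result was not tested.

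The windows before the start of Itga8 and Itgb1 are given for the 2 genes that passed. The RefSeq gene span of Itga8 reaches position 12301985, so the last bases of its printed window lie inside that span. The window of Itgb1 held 1 match, a GC box 151 to 146 bases before the start, and that of Itga8 held none of the 6 motifs. No match overlapped another.
Itga8 (chr2:12301945-12302194, minus strand): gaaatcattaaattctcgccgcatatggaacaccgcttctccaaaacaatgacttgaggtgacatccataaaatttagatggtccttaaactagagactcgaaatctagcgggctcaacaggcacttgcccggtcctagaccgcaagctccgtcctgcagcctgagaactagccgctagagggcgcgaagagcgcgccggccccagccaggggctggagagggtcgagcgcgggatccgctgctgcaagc
Itgb1 (chr8:128685404-128685653, plus strand): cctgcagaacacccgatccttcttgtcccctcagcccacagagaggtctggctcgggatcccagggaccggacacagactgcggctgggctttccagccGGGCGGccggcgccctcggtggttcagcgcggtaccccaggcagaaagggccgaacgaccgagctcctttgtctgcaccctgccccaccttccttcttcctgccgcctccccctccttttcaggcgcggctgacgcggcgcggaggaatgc

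**Figure D4:**
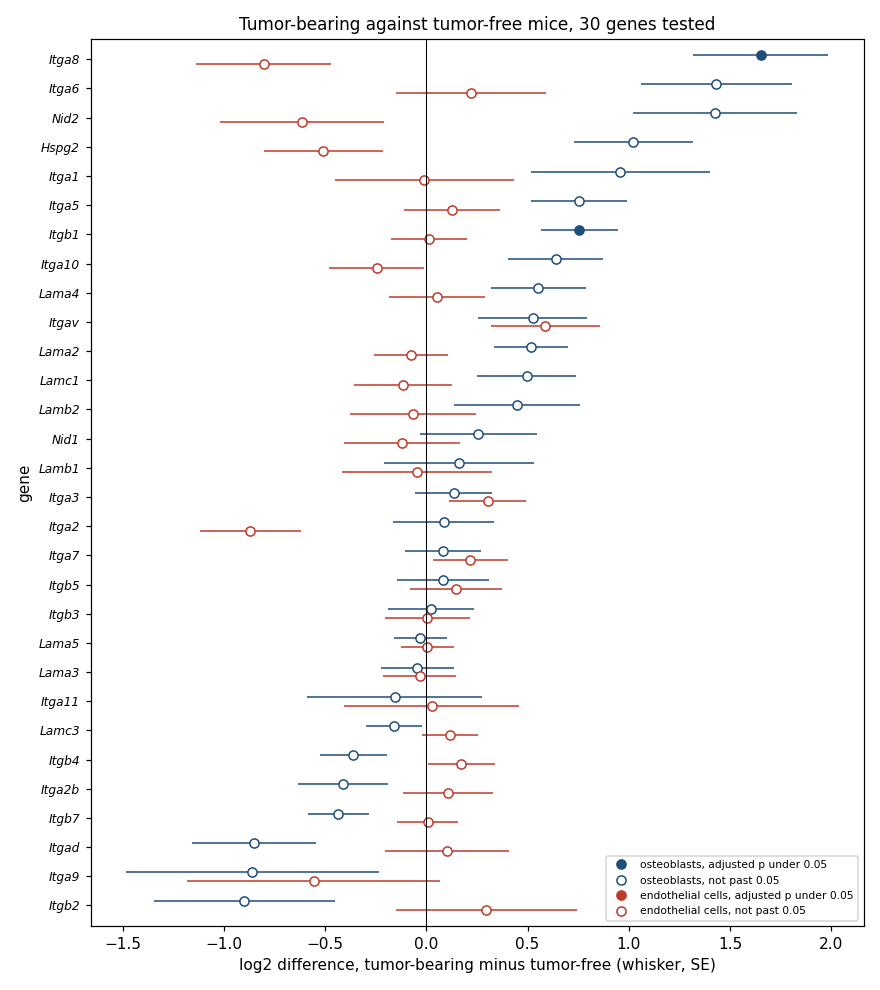
Log2 difference between tumor-bearing and tumor-free mice (x axis; whiskers, SE) for the 30 genes tested (y axis), in osteoblasts (blue) and endothelial cells (red); filled points passed an adjusted p of 0.05. In osteoblasts Itga8 and Itgb1 passed, and Itga6, Nid2 and Hspg2 lie at 1.43, 1.42 and 1.02 without passing; in endothelial cells 0 passed.

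Several other genes had large differences in osteoblasts that did not pass. Itga6 read 7.82, 8.10 and 8.52 in osteoblasts of tumor-bearing mice and 7.60, 5.73 and 6.82 in those of tumor-free mice, without overlap (1.43 ± 0.37 SE, adjusted p = 0.0555). Itga5 read 7.08, 7.98 and 7.16 in osteoblasts of tumor-bearing mice and 6.84, 6.73 and 6.39 in those of tumor-free mice, also without overlap (0.76 ± 0.24 SE, adjusted p = 0.0915), and Itgb7 was the fifth gene whose groups did not overlap (-0.43 ± 0.15 SE, adjusted p = 0.121). Nid2 read 8.85, 9.54 and 9.68 in osteoblasts of tumor-bearing and 8.89, 7.80 and 7.11 in those of tumor-free mice (1.42 ± 0.41 SE, adjusted p = 0.0703). For Nid2 the groups overlapped at tumor-free replicate 1. Perlecan, which is also a component of cartilage matrix, read 8.21, 9.03 and 8.88 in osteoblasts of tumor-bearing and 8.38, 7.47 and 7.20 in those of tumor-free mice (1.02 ± 0.30 SE, adjusted p = 0.0733), with the same tumor-free array highest. On that array the chondrocyte marker mean was 9.94, against 8.41 and 6.55 on tumor-free replicates 2 and 3, and Acan, which encodes the cartilage proteoglycan aggrecan, read 10.60, 11.19 and 11.10 on the tumor-bearing and 10.88, 9.35 and 5.26 on the tumor-free osteoblast arrays. Over the 6 arrays Nid2 and perlecan had their lowest values where the chondrocyte mean was lowest, tumor-free replicate 3, and their highest on tumor-bearing replicates 2 and 3. The part of cartilage cells in these values was not tested.

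Itga6 passed with arrays centred on their medians (0.0407), with a filter at the 70th percentile (0.0463) and with a weight for each array (0.0136), and the last setting also called Nid2 (0.0295) and perlecan (0.0206). Without tumor-free osteoblast replicate 1 the count of genes called in osteoblasts was 7, with Itga6 at 1.87 (0.00324), Nid2 at 1.90 (0.00468), perlecan at 1.37 (0.00491) and Lama2 at 0.68 (0.0308). In that fit Itgb2 differed by -1.55 (0.00316) and Itgad by -1.28 (0.00201), the direction of the leukocyte marker means. Without tumor-free osteoblast replicate 2 the count was 4, with Lamb2 at 0.91 (0.00984) and Itga10 at 0.93 (0.0146) beside Itga8 and Itgb1. The remaining collagen receptor chains, Itga1 (0.96 ± 0.44 SE), Itga2 (0.09 ± 0.25 SE) and Itga11 (-0.16 ± 0.43 SE), and Lamc1 (0.49 ± 0.24 SE) did not pass.

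**Figure D5:**
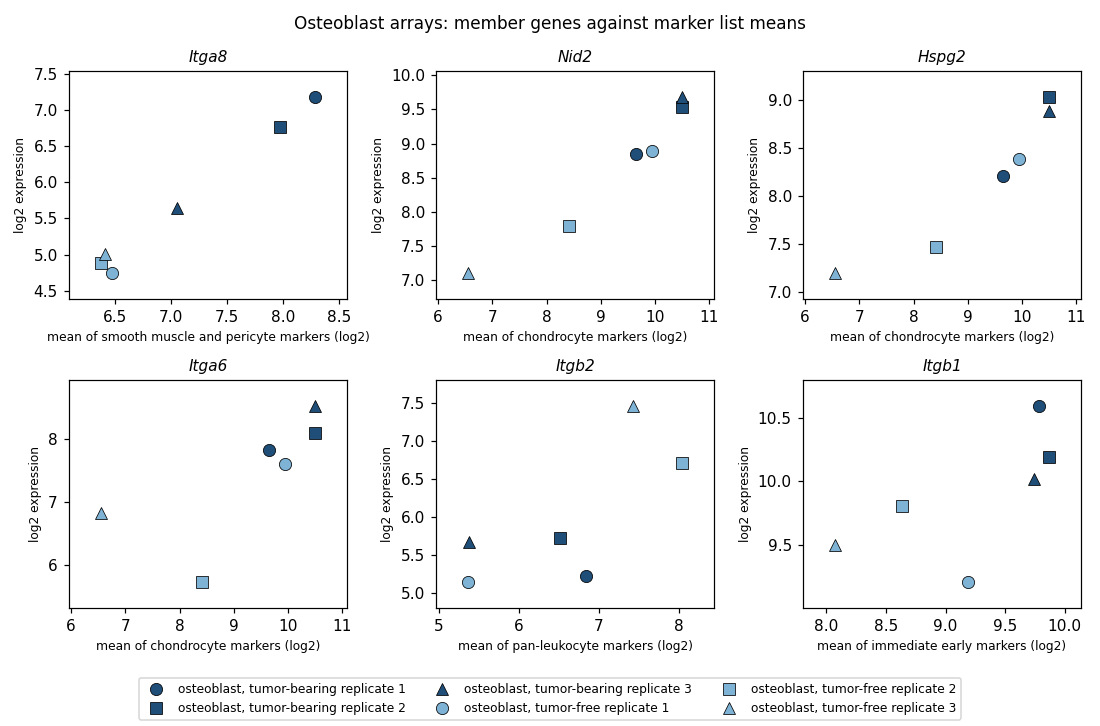
Log2 expression of 6 genes (y axis) against the mean log2 level of a marker list (x axis) on the 6 osteoblast arrays, tumor-bearing in dark and tumor-free in light blue; circles, squares and triangles are replicates 1, 2 and 3. Itga8 is highest on the 2 arrays with smooth muscle and pericyte means of 8.29 and 7.97, Nid2 and Hspg2 are lowest on the array with a chondrocyte mean of 6.55, and Itgb2 is highest on the 2 arrays with leukocyte means of 8.04 and 7.42. Itga6 is lowest, 5.73, on the array with a chondrocyte mean of 8.41. Itgb1 and the immediate early mean are both higher on every tumor-bearing array than on any tumor-free array. Among tumor-free arrays Itgb1 is lowest, 9.21, where the immediate early mean is highest, 9.19.

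Among the 3 osteoblast arrays of tumor-bearing mice the 30 genes had no single order. Replicate 1 was the highest for 14 of them and the lowest for 12, replicate 2 for 8 and 3, and replicate 3 for 8 and 15. Replicate 1 was the highest for Itga1 (9.20, against 7.72 and 6.93 on replicates 2 and 3), Lamc1 (8.61, against 7.81 and 7.47), Lamb1 (8.66, against 7.71 and 7.22) and Nid1 (7.50, against 6.83 and 6.10). It was the lowest for Itga6, Itga10, Nid2 and Hspg2, whose values are given above. Of 12 marker lists 7 had their highest mean on replicate 1: osteoblast (8.97, 8.82 and 8.72), smooth muscle and pericyte, fibroblast and reticular stroma (9.86, 9.16 and 8.72), osteoclast (5.83, 5.42 and 5), neutrophil (6.44, 6.38 and 5.37), monocyte and macrophage (6.71, 6.22 and 4.97) and leukocyte markers.

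In endothelial cells 0 of the 30 genes passed between tumor-bearing and tumor-free mice by limma, where 0.0241% of all genes were called, and 2 of the 30 had an unadjusted p under 0.05, as did 6.93% of all genes. With a weight for each array 1 passed, Itga2. Groups were free of overlap for 5 of the 30, where 18.8% of all genes were. Itga2 read 8.02, 7.83 and 8.06 in endothelial cells from tumor-bearing mice and 8.89, 8.84 and 8.79 in those of tumor-free mice. All 3 tumor-bearing arrays were lower (-0.87 ± 0.25 SE, adjusted p = 0.437, against 0.0281 with a weight for each array). Itga8 read 5.71, 5.47 and 5.63 in endothelial cells from tumor-bearing and 6.31, 6.83 and 6.09 in those of tumor-free mice, without overlap and short of the threshold (-0.80 ± 0.33 SE, adjusted p = 0.666). The others without overlap were Itgav (0.59 ± 0.27 SE, adjusted p = 0.726), Hspg2 (-0.51 ± 0.30 SE, adjusted p = 0.842) and Itga9 (-0.56 ± 0.63 SE, adjusted p = 0.999).

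The difference of the tumor effects, endothelial minus osteoblast, was tested in the same fit, and 0 of the 30 genes passed, where 0.209% of all genes did; 9 of the 30 had an unadjusted p under 0.05, as did 16% of all genes. Itga8 came nearest, at -2.46 ± 0.47 SE (adjusted p = 0.0629), from the -0.80 in endothelial cells and the 1.65 in osteoblasts given above. It passed with arrays centred on their medians (0.0476), with a weight for each array (0.024) and without tumor-bearing osteoblast replicate 3 (0.0104) or tumor-free osteoblast replicate 1 (0.0293) or 2 (0.0488). Nid2 (-2.04 ± 0.57 SE, adjusted p = 0.154) and perlecan (-1.53 ± 0.42 SE, adjusted p = 0.147) followed; without tumor-free osteoblast replicate 1 they stood at -2.52 (0.0136) and -1.88 (0.0119), and 6 genes passed. Without tumor-free osteoblast replicate 2, Itga10 (0.0398) and Lamb2 (0.0466) passed beside Itga8. This comparison shares its arrays with all of those above.

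Genes that work with these receptors were read from 4 lists, whose counts stand against the shares of all genes called that are given above. Proteins that couple integrins to actin inside the cell had 31 genes tested. In tumor-free mice 12 were higher and 2 lower in endothelial cells than in osteoblasts, with a list median difference of 0.58, and in tumor-bearing mice 2 were higher and 0 lower. The first 4 by p in tumor-free mice were Actn4, an actin cross-linker (1.76 ± 0.27 SE, adjusted p = 0.000923), Rap1b, a small GTPase that activates integrins (0.95 ± 0.18 SE, adjusted p = 0.00358), Vcl, which encodes vinculin (1.09 ± 0.21 SE, adjusted p = 0.00412), and Bcar1, a docking protein of focal adhesions (0.93 ± 0.19 SE, adjusted p = 0.00579). In tumor-bearing mice those higher were Tes (1.14 ± 0.26 SE, adjusted p = 0.0112; 0.0524 without endothelial replicate 3 of these mice) and Parvb (1.56 ± 0.37 SE, adjusted p = 0.0148; 0.0551 to 0.0684 without that array or osteoblast replicate 1 or 2), both proteins of focal adhesions. Between tumor-bearing and tumor-free osteoblasts 1 of the 31 rose: vinculin read 8.82, 8.49 and 8.94 in tumor-bearing and 7.43, 7.58 and 6.96 in tumor-free mice, without overlap (2.69-fold, adjusted p = 0.00785).

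Integrin ligands other than laminins had 22 genes tested, of which 5 rose and 0 fell in osteoblasts of tumor-bearing mice, with a list median difference of 0.02. Edil3, a secreted RGD protein that binds αv integrins, read 6.58, 7.28 and 7.28 in tumor-bearing and 5.30, 4.38 and 4.17 in tumor-free mice (5.41-fold, adjusted p = 0.00542). Mfge8, another secreted RGD protein, read 8.40, 9.08 and 9.24 in tumor-bearing and 7.14, 7.34 and 7.03 in tumor-free mice (3.33-fold, adjusted p = 0.0057). Neither overlapped. Fn1, fibronectin, rose 2.16-fold (adjusted p = 0.0294), Thbs1, thrombospondin 1, 2.15-fold (adjusted p = 0.0343) and Emilin1, an elastic fiber protein, 1.8-fold (adjusted p = 0.0379). The call of Fn1 ended without tumor-bearing osteoblast replicate 1, 2 or 3 or tumor-free osteoblast replicate 3 (0.0525 to 0.114). The call of Thbs1 ended without those arrays, tumor-bearing endothelial replicate 1 or tumor-free endothelial replicate 3 (0.0545 to 0.127), and that of Emilin1 without any array but tumor-free endothelial replicates 1 and 2 and tumor-free osteoblast replicate 1 (0.0502 to 0.139). All 3 calls ended in the osteoblast arrays alone (0.104 to 0.19) and with a weight for each group (0.122 to 0.193). With the replicate number as a block those of Thbs1 (0.0577) and Emilin1 (0.0606) ended, and after quantile normalization that of Emilin1 did (0.0548). On the same arrays the chondrocyte markers averaged 9.64 to 10.5 in tumor-bearing and 6.55 to 9.94 in tumor-free mice, with 1 of 9 called, the smooth muscle and pericyte markers 7.05 to 8.29 in tumor-bearing and 6.37 to 6.47 in tumor-free mice, with 3 of 8 called, and the immediate early genes 9.74 to 9.87 in tumor-bearing and 8.07 to 9.19 in tumor-free mice, with 3 of 12 called. Their part in these results, and in those of Vcl, Cav1 and Sdc4, was not tested.

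Between the cell types 6 ligands were higher and 12 lower in endothelial cells from tumor-bearing mice, and 6 were higher and 10 lower in those of tumor-free mice. F11r, a junction protein that binds a β2 integrin, was higher in endothelial cells (4.47 ± 0.28 SE in tumor-bearing and 4.73 ± 0.28 SE in tumor-free mice). Icam2, an endothelial ligand of β2 integrins, was higher too (2.38 ± 0.22 SE in tumor-bearing and 2.30 ± 0.22 SE in tumor-free mice). Ibsp, bone sialoprotein, an RGD protein of mineralized matrix, was lower (-5.88 ± 0.36 SE in tumor-bearing and -5.49 ± 0.36 SE in tumor-free mice), and so was Fn1 (-3.04 ± 0.24 SE in tumor-bearing and -2.29 ± 0.24 SE in tumor-free mice). Each of these differences passed in both kinds of mice.

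Other basement membrane genes, 26 tested, had 7 higher and 3 lower in endothelial cells from tumor-bearing mice and 8 higher and 7 lower in those of tumor-free mice. Egfl7, a secreted endothelial matrix protein (3.36 ± 0.15 SE in tumor-bearing and 3.15 ± 0.15 SE in tumor-free mice), and Pxdn, the peroxidase that cross-links type IV collagen (3.63 ± 0.20 SE in tumor-bearing and 3.72 ± 0.20 SE in tumor-free mice), led by p. Col4a2, a chain of type IV collagen, was 2.55-fold higher in tumor-bearing (adjusted p = 0.00141) and 2.37-fold higher in tumor-free mice (adjusted p = 0.00212). Between tumor-bearing and tumor-free osteoblasts 0 of the 26 passed by limma, and 7 had an unadjusted p under 0.05.

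Partners of integrins and laminin receptors of other families had 19 genes tested, and 2 rose in osteoblasts of tumor-bearing mice. Cav1, caveolin 1, which binds integrins at the membrane, read 7.77, 8.12 and 7.92 in tumor-bearing and 6.14, 4.90 and 4.96 in tumor-free mice (6.09-fold, adjusted p = 0.00412). On tumor-free replicates 2 and 3 Cav1 lay below the lowest array median, 5.21. Sdc4, a syndecan that binds fibronectin beside integrins, read 8.45, 8.74 and 8.51 in tumor-bearing and 7.39, 6.72 and 6.57 in tumor-free mice (3.18-fold, adjusted p = 0.00542). Both had groups that did not overlap, and their calls, like those of Vcl, Edil3 and Mfge8, held whichever array was left out and ended in the osteoblast arrays alone (adjusted p 0.103 to 0.104). The genes tested were kept the same in those fits. Between the cell types 2 genes of this list were higher and 6 lower in endothelial cells from tumor-bearing mice, and 5 were higher and 7 lower in those of tumor-free mice. Cd151, a tetraspanin that binds the laminin receptors, was 7.94-fold higher in endothelial cells from tumor-free mice (adjusted p = 0.00116). Without tumor-free osteoblast replicate 2 its log2 difference was 3.68. Its tumor-free means were 8.85 in endothelial cells and 5.86 in osteoblasts, against 8.70 and 7.40 in tumor-bearing mice. Bcam, a receptor for the laminin α5 chain, was 2.47-fold higher in endothelial cells from tumor-bearing mice (adjusted p = 0.00303). In tumor-free mice Bcam averaged 7.24 in endothelial cells and 6.34 in osteoblasts. In endothelial cells 0 genes of these 4 lists passed between tumor-bearing and tumor-free mice by limma, and 1 of 31, 5 of 22, 2 of 26 and 2 of 19 had an unadjusted p under 0.05.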

How the data were processed

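The values the authors deposited are on a log2 scale, for 34760 probe sets and 12 arrays, and were made with affy per the submitters' processing notes. The sources used here do not give its version, background correction or normalization. Per the labels' protocols RNA was amplified as cDNA and labelled with biotin. Gene names came from the annotation of the platform, in which 21640 probe sets have 1 symbol, 1321 have several and 11799 are not listed, and for each gene the probe set with the highest mean was used. Groups came from the sample titles. Of 66 pairs of arrays 0 held identical values. limma 3.58.1 in R 4.3.3 was fitted to the deposited log2 values of 12430 genes with 1 mean per group over all 12 arrays, and tests are two-sided. The fit was tested on simulated data. The genes and lists were chosen with earlier results of these data known. Values on every array are given for genes called between tumor-bearing and tumor-free mice, the 12 with the smallest p in each comparison of the cell types and 18 set genes; of other lists, called genes were named. The array number limits the precision, and signal over background was not used here. Leaving out both tumor-free arrays of a number was chosen after seeing the data.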

Additional observations from a re-analysis of the deposited data

How the results depend on the processing

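Over the 5 comparisons and 30 genes, leaving out 1 of the 12 arrays gave 1800 results, of which 1712 stayed on their side of the threshold, 61 lost it, 27 gained it and 0 changed sign while called; the other settings gave 1880, with 1788, 55, 37 and 0. Genes called between tumor-bearing and tumor-free osteoblasts numbered 2; they numbered 0 to 7 with 1 array left out, 1 with the replicate number as a block, 1 after quantile normalization, 4 with a weight for each array, 0 with a weight for each group and 0 in the osteoblast arrays alone. Leaving out both tumor-free arrays numbered 1, 2 or 3, a choice made after seeing the data, gave 7, 4 and 0. In endothelial cells the count was 0, and 1 with a weight for each array. Between the cell types the 14 calls in tumor-bearing mice became 8 to 16 with 1 array left out. The 20 in tumor-free mice became 15 to 21, and 13 and 12 without both tumor-free arrays numbered 2 or 3. For the difference of the tumor effects the count of 0 became 1 with arrays centred on their medians, 0 to 6 with 1 array left out, 3 with a weight for each array and 4 without both tumor-free arrays numbered 1. The causes were not tested. The other counts lay within 1.5 times. Deviations of arrays with the same number correlated between -0.26 and 0.108 over all pairs of groups. Between the cell types of the same kind of mice they correlated between -0.0456 and 0.0948. The numbers were not taken to pair the samples, and whether arrays share mice or a day was not tested. The block gave 0 calls in endothelial cells and 0 for the difference of the tumor effects. Between the cell types it gave 13 in tumor-bearing and 20 in tumor-free mice. Limits: 3 arrays per group bound the precision, the median SD of the 30 genes tested was 0.126 and 0.114 in endothelial cells from tumor-bearing and tumor-free mice and 0.355 and 0.302 in osteoblasts, and centring arrays put the median difference of all genes at 0.18 (0.03 as deposited) between the cell types of tumor-free mice and at -0.15 (-0.05 as deposited) for the difference of the tumor effects.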
